A study of Caenorhabditis elegans with 12 samples.

Results

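The basement membrane genes described here are 10 genes of Caenorhabditis elegans. They encode the chains of type IV collagen (emb-9, let-2) and of laminin (lam-1, lam-2, lam-3, epi-1), nidogen (nid-1), type XVIII collagen (cle-1), SPARC (ost-1) and fibulin-1 (fbl-1). The genes were taken by name, whatever their values, though earlier results of these data were known when they were chosen. All 10 were found among the 12595 genes of the expression table.

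The study asked which mRNAs are more abundant when germline stem cells are missing and which of these need the transcription factor SKN-1. Poly(A) RNA was sequenced from pooled whole hermaphrodites on day 1 of adulthood, in 4 groups of 3 biological replicates (12 libraries). The groups were glp-1(bn18ts), called glp-1(ts), on skn-1 RNAi food, glp-1(ts) on L4440 vector food, wild type N2 (WT) on skn-1 RNAi food, and WT on L4440 vector food. All 4 groups were synchronized by bleaching, arrested as L1 larvae and grown at 25°C, a temperature at which glp-1(ts) does not maintain its germline stem cells. The start of RNAi feeding is given as the egg in the sample labels and as the L1 larva in the methods. The mutation also removes eggs and most other germ cells, so the WT libraries hold germline and embryo RNA that the glp-1(ts) libraries largely lack, and feeding RNAi lowers skn-1 only in part.

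The deposited values are log2 CPM (read counts scaled to a common library total), quantile normalized so that every library has nearly the same distribution, and the depth behind each library is unknown. A gene was called at an adjusted p under 0.05 in limma (Benjamini-Hochberg over all genes), where all groups shared an estimate of the spread. The marker lists followed the strain labels. The 10 germline markers summed to 154 to 372 CPM in the glp-1(ts) vector libraries, against 1866 to 2334 CPM in the WT vector libraries, with the highest glp-1(ts) level in replicate 3. The skn-1 mRNA itself was at 4.56, 5.03 and 4.37 log2 CPM in the WT skn-1 RNAi libraries, against 6.38, 6.50 and 6.10 in the WT vector libraries (log2 fold change −1.67, adjusted p = 0.00782 by limma). Without WT vector replicate 1 that adjusted p by limma was 0.0579. In glp-1(ts), skn-1 was at 5.73, 6.60 and 6.08 log2 CPM in the samples labelled as skn-1 RNAi, against 6.07, 6.17 and 6.23 in the vector libraries. The RNAi label of the glp-1(ts) libraries is therefore not borne out by their skn-1 mRNA, and they are written as labelled below. That mRNA alone does not show whether the RNAi acted. The paper reports from these libraries that the higher lipl-3 and gst-4 mRNA of glp-1(ts) depended on skn-1. It also reports that qRT-PCR of the sequenced RNA gave similar levels for genes raised by SKN-1. Those genes were not analysed here.

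Basement membranes are thin sheets of extracellular matrix on which epithelia, muscle, nerves and the gonad rest. Laminin, a trimer of an alpha, a beta and a gamma chain, assembles first at the cell surface. Type IV collagen then forms a covalent network that gives the sheet its strength. In C. elegans the body wall muscles and the somatic gonad make much of the type IV collagen, which is secreted and joins basement membranes of other tissues too. Nidogen, type XVIII collagen, SPARC and fibulin bind to these networks or act on their assembly.

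In glp-1(ts), 9 of the 10 genes were higher than in WT on vector, by 1.70-fold to 4.96-fold, and the laminin alpha chain gene lam-3 was not called. Among these 9 genes on vector, SPARC, type XVIII collagen and type IV collagen had the largest differences, and the laminin beta and gamma chains the smallest. The same 9 genes were called higher on skn-1 RNAi food. That comparison shares no library with the one on vector, but it does share the fit, the estimate of the spread and the normalization. These counts stand against a background in which 39.4% of all genes were called higher in glp-1(ts) on vector and 41.7% on skn-1 RNAi food. The median log2 fold change was 1.51 over the 10 genes, against 0.27 over all genes on vector. On skn-1 RNAi food it was 1.91, against 0.32 over all genes. The 3 glp-1(ts) libraries lay above the 3 WT libraries for 9 genes on either food, as they did for 41.4% of all genes on vector and 42.2% on skn-1 RNAi food. Genes more than 4-fold higher with an unadjusted limma p under 0.05 made up 10.4% of all genes on vector, and 3 of the 10 genes (emb-9, cle-1, ost-1). On skn-1 RNAi food they made up 15.1% of all genes, and let-2 joined those 3. The 4-fold line is that of the study, which found mRNAs specific to somatic tissues enriched by up to about 4-fold in glp-1(ts). A fold change of this kind compares shares of whole-animal RNA. In bulk samples, less germline and embryo RNA in the total, more cells of a type and more RNA per cell cannot be told apart.

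**Figure D1:**
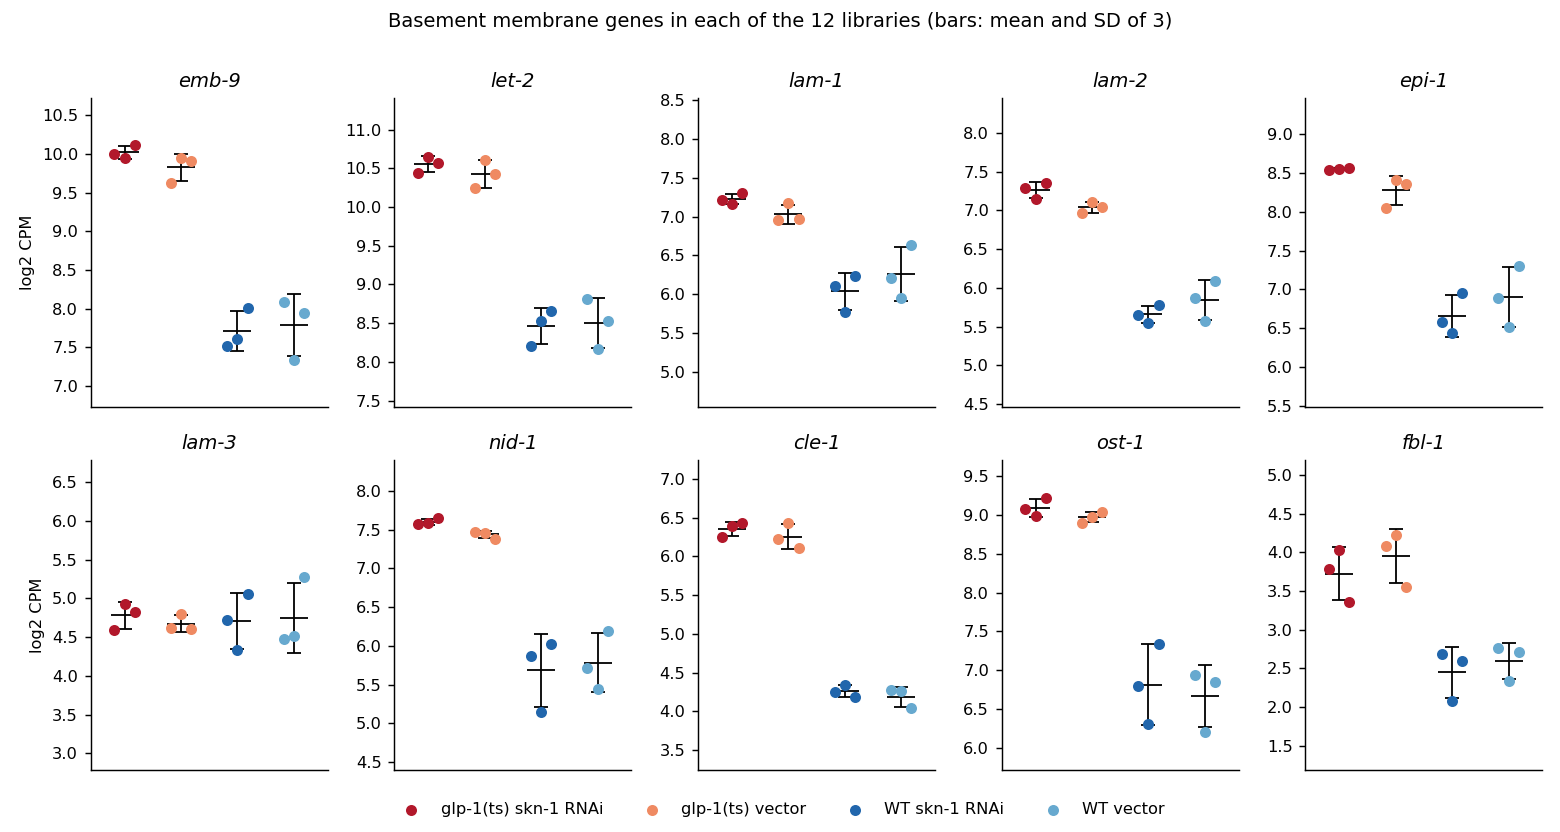
Each panel plots 1 gene, with log2 CPM on the vertical axis over a span of equal height in all panels, and a point for each library in the 4 groups (black bars, mean and SD of 3). In every panel but that of lam-3, the points of glp-1(ts) sit above those of WT on the same food.

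Both type IV collagen genes were among the most abundant of the 10 genes and were about 4-fold higher in glp-1(ts). The gene emb-9 (WBGene00001263, WBcel235, chromosome III, 9336881 to 9344447, minus strand) encodes the chain that is called alpha-1 in vertebrates. Its level on vector was 9.62, 9.95 and 9.90 log2 CPM in glp-1(ts), against 8.08, 7.34 and 7.94 log2 CPM in WT. The lowest glp-1(ts) library was well above the highest WT library, and replicate 2 was the low one in WT. The log2 fold change was 2.04 ± 0.18 (SE, limma, adjusted p = 3.43e-07). On skn-1 RNAi food emb-9 was at 10.00, 9.95 and 10.11 log2 CPM in glp-1(ts), against 7.52, 7.61 and 8.0 in WT, and the log2 fold change was 2.31.

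The second collagen gene, let-2 (WBGene00002280, chromosome X, 16380597 to 16389340, minus strand), encodes the partner chain. It stood at 10.25, 10.61 and 10.42 log2 CPM in glp-1(ts) on vector, against 8.82, 8.17 and 8.53 log2 CPM in WT. As for emb-9, the groups did not overlap and WT replicate 2 was lowest. Its log2 fold change was 1.92 ± 0.17 (SE, limma, adjusted p = 2.6e-07) on vector and 2.09 on skn-1 RNAi food.

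Because both chains enter the same trimer, their ratio was compared within each library, on levels divided by exon length (CPM per kb). The let-2 over emb-9 ratio was 1.49, 1.52 and 1.38 in glp-1(ts) on vector, against 1.60, 1.71 and 1.45 in WT on vector. The ranges overlapped, with a log2 difference of −0.11 (exact two-sided permutation p = 0.3, where 3 against 3 libraries cannot go below 0.1). The fold differences of the chains themselves were 4.10 for emb-9 and 3.79 for let-2.

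The laminin chains divided into 3 that were higher in glp-1(ts) and 1 that was not called. The beta chain is encoded by lam-1 (WBGene00002247, chromosome IV, 5173332 to 5183746, plus strand). Its level on vector was 6.95, 7.17 and 6.97 log2 CPM in glp-1(ts), against 6.21, 5.95 and 6.63 in WT. The groups were apart by a narrow gap, set by WT replicate 3. The log2 fold change, 0.77 ± 0.17 (SE, limma, adjusted p = 0.000781), was the smallest of the 9 called genes and higher than that of 59.8% of all genes.

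The gamma chain gene lam-2 (WBGene00016913, chromosome X, 7143846 to 7151239, minus strand) had 6.97, 7.11 and 7.04 log2 CPM in glp-1(ts) on vector, against 5.87, 5.57 and 6.09 in WT. Every glp-1(ts) library was higher than every WT library, and the glp-1(ts) libraries lay close together. Between the strains lam-2 had a log2 fold change of 1.20 ± 0.13 (SE, limma, adjusted p = 2.22e-06). For lam-1 and lam-2 the log2 fold changes on skn-1 RNAi food were 1.19 and 1.60.

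C. elegans has a pair of laminin alpha chains, and they differed in these data. The gene epi-1 (WBGene00001328, chromosome IV, 10666823 to 10679291, plus strand) encodes the alpha chain found on most tissues. Its level on vector was 8.06, 8.41 and 8.36 log2 CPM in glp-1(ts), against 6.89, 6.52 and 7.30 in WT. The lowest glp-1(ts) library was above the highest WT library. Its log2 fold change was 1.37 ± 0.18 (SE, limma, adjusted p = 1.12e-05) on vector and 1.90 on skn-1 RNAi food.

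The other alpha chain gene is lam-3 (WBGene00002248, chromosome I), known for its part in the basement membrane of the pharynx and in the embryo. It was at 4.62, 4.80 and 4.60 log2 CPM in glp-1(ts) on vector, against 4.47, 4.51 and 5.27 in WT. WT replicate 3 was the highest library and the other WT libraries the lowest, so that the groups overlapped. Its log2 fold change was −0.08 with a 95% interval of −0.55 to 0.40 (limma, adjusted p = 0.748). With skn-1 RNAi food lam-3 was at 4.59, 4.92 and 4.83 log2 CPM in glp-1(ts), against 4.72, 4.33 and 5.05 in WT (log2 fold change 0.08, 95% interval −0.40 to 0.55). On both foods the upper bound for lam-3 was under the lower bound for epi-1, 0.98 on vector and 1.51 on skn-1 RNAi food. Among the 10 genes, the direction of the strain difference turned on leaving out 1 library for lam-3 alone. Without WT vector replicate 3 its log2 fold change on vector was 0.18.

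On the CPM per kb scale the makeup of the laminin transcripts differed between the strains. lam-3 made up 9.91%, 8.83% and 8.06% of the alpha chain level (epi-1 plus lam-3) in glp-1(ts) on vector, against 18.2%, 22.8% and 22.6% in WT on vector. On skn-1 RNAi food it was 8.02% ± 0.81 in glp-1(ts) and 23.5% ± 1.6 in WT (SD, n = 3 each). The share was lower in every glp-1(ts) library than in any WT library. This share was computed after the levels of both genes had been seen, and is given with no test.

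The gamma to beta ratio, lam-2 over lam-1 per kb, was 0.988, 0.938 and 1.03 in glp-1(ts) on vector, against 0.772, 0.751 and 0.668 in WT on vector. The values did not overlap, and the log2 difference was 0.43 (exact two-sided permutation p = 0.1, the smallest that 3 against 3 libraries allow). On skn-1 RNAi food the ratio was 0.999 ± 0.033 in glp-1(ts) and 0.754 ± 0.072 in WT (SD, n = 3 each). On this per kb scale lam-1 and lam-2 were thus closer in glp-1(ts) than in WT, where lam-1 was the higher. The scale assumes even coverage of the exons, so it does not show whether the transcripts were equal in number in either strain. The sum of the alpha chains over lam-1 was 1.37 ± 0.12 in glp-1(ts) on vector and 1.04 ± 0.03 in WT on vector (SD, n = 3 each). The same sum over lam-2 was 1.39 ± 0.11 in glp-1(ts) on vector and 1.43 ± 0.16 in WT on vector. Both of these sums over a partner chain are descriptions with no test.

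**Figure D2:**
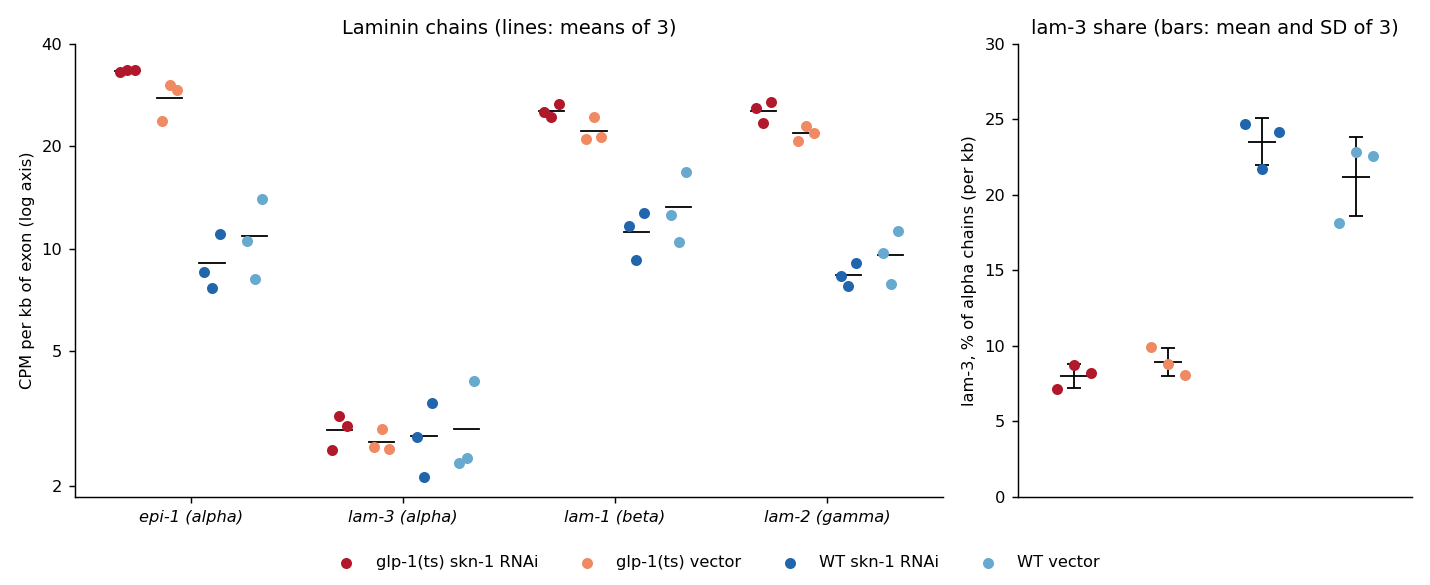
Left, CPM per kb of exon (log axis) of the laminin chain genes in each library, with lines at group means. Right, the lam-3 share of the alpha chain level in percent, with mean and SD. The points of epi-1, lam-1 and lam-2 lie higher for glp-1(ts), those of lam-3 overlap, and the lam-3 share is at most 9.91% in the glp-1(ts) libraries and at least 18.2% in those of WT.

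Among the remaining 4 genes, all were called higher in glp-1(ts). The nidogen gene nid-1 (WBGene00003738, chromosome V, 12910107 to 12917221, plus strand) encodes a protein that binds laminin and type IV collagen. It had 7.47, 7.45 and 7.39 log2 CPM in glp-1(ts) on vector, against 5.72, 5.44 and 6.19 in WT. The glp-1(ts) libraries lay close together, while the WT libraries were spread over a wider range below them. For nid-1 the log2 fold change was 1.66 ± 0.21 (SE, limma, adjusted p = 7.55e-06) on vector and 1.92 on skn-1 RNAi food.

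The gene cle-1 (WBGene00000527, chromosome I) encodes type XVIII collagen, which is found at synapses and around the gonad and muscle. It had 6.22, 6.43 and 6.11 log2 CPM in glp-1(ts) on vector, against 4.27, 4.26 and 4.04 in WT. The strains were far apart relative to the spread of either. This was a log2 fold change of 2.06 ± 0.13 (SE, limma, adjusted p = 3.48e-08) on vector and 2.10 on skn-1 RNAi food. Of the exons of cle-1, 250 bp overlap genes on the other strand, cdk-8 among them. No strand setting of the counting is given in the sources used here, so reads there could belong to either strand.

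The gene ost-1 (WBGene00003893, chromosome IV, 1107396 to 1110872, plus strand) encodes SPARC, a calcium-binding glycoprotein that binds type IV collagen and is made by muscle. Its level was 8.90, 8.98 and 9.04 log2 CPM in glp-1(ts) on vector, against 6.94, 6.21 and 6.84 in WT. WT replicate 2 was again the lowest library. Its log2 fold change was 2.31 ± 0.23 (SE, limma, adjusted p = 7.6e-07) on vector, larger than for the other 9 genes and higher than for 95% of all genes. With skn-1 RNAi food ost-1 was at 9.07, 8.99 and 9.22 log2 CPM in glp-1(ts), against 6.79, 6.30 and 7.34 in WT, with a log2 fold change of 2.28.

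The fibulin gene fbl-1 (WBGene00001403, chromosome IV, 9540806 to 9546252, plus strand) encodes a protein that acts on gonad shape together with matrix proteases. It was the least abundant of the 10 genes on the CPM scale, at 4.08, 4.23 and 3.56 log2 CPM in glp-1(ts) on vector, against 2.76, 2.34 and 2.71 in WT. The groups did not overlap, with glp-1(ts) replicate 3 nearest to WT. The log2 fold change was 1.35 ± 0.24 (SE, limma, adjusted p = 0.00018) on vector and 1.27 on skn-1 RNAi food.

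The order of the levels per kb, which assumes even coverage of the exons, was led by ost-1 in both strains, followed by let-2 and emb-9. In glp-1(ts) on vector, ost-1 was at 437 ± 20.5, let-2 at 238 ± 29.8 and emb-9 at 162 ± 19.5 CPM per kb (SD, n = 3). In WT on vector, ost-1 was at 90.1 ± 22.8, let-2 at 63.4 ± 14.1 and emb-9 at 40.3 ± 10.2 CPM per kb (SD, n = 3). In WT the ranges of ost-1 and let-2 overlapped, and in glp-1(ts) these 3 genes did not overlap. Below them in glp-1(ts) came nid-1 at 34.5, epi-1 at 27.7, lam-1 at 22.2, lam-2 at 21.8 and cle-1 at 17.5 CPM per kb. Among these, epi-1 overlapped lam-1 and lam-1 overlapped lam-2. In WT, lam-1 at 13.3, nid-1 at 11.2, epi-1 at 10.9 and lam-2 at 9.59 CPM per kb had ranges that all overlapped, with cle-1 below them at 4.18. The lowest genes were fbl-1 at 5.07 and lam-3 at 2.70 CPM per kb in glp-1(ts), and lam-3 at 2.95 and fbl-1 at 1.96 CPM per kb in WT, where lam-3 overlapped cle-1. Collagen emb-9 stood to the laminin gamma chain lam-2 at 7.42 ± 0.59 in glp-1(ts) on vector and at 4.19 ± 0.71 in WT on vector (SD, n = 3 each).

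Markers of most somatic tissues were higher in glp-1(ts) on vector along with the basement membrane genes. Of all 12595 genes, 4958 were called higher in that comparison and 4788 lower. All 8 body wall muscle markers were called higher, with log2 fold changes of 1.20 to 1.70 and a median of 1.60. Their summed level was 5163 to 6757 CPM in glp-1(ts) on vector, against 1614 to 2837 CPM in WT on vector. In the somatic gonad list (sheath and spermatheca), 6 of 7 genes were called higher, with a median of 1.42 and a summed level of 116 to 143 CPM in glp-1(ts), against 47.0 to 54.4 CPM in WT. The intestine list had 6 of 6 called higher (median 2.02), the pharynx list 4 of 5 (median 1.79), the coelomocyte list 3 of 3 (median 2.02) and the neuron list 3 of 6 (median 0.77). The hypodermis list went the other way, with 4 of 6 called lower and 1 higher (median −1.60). In that list, 3 genes had a value under 1 CPM in glp-1(ts) on vector and 1 in WT on vector. All 10 germline markers were called lower (median −3.22), as were the 4 of 7 early embryo markers in the table (median −3.27). Each of these 4 fell under 1 CPM in at least 1 glp-1(ts) library, and 3 of them in at least 1 WT vector library. Of the 3 reference genes, Y45F10D.4 was called higher, pmp-3 lower and cdc-42 neither (median −0.13). The part of these tissue shares in the basement membrane results was not tested.

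The muscle list was also used as a scale, by centring each library on its mean. This moved the all-gene median to −1.26 on vector (log2), and what follows is relative to muscle. The 10 genes then split into 3 kinds. On vector, emb-9 (log2 fold change 0.51, limma adjusted p = 0.0285) and ost-1 (0.78, limma adjusted p = 0.00178) were still called higher in glp-1(ts), where 4.8% of all genes were. The beta chain lam-1 (−0.76, limma adjusted p = 0.00395) and the alpha chain lam-3 (−1.61, limma adjusted p = 5.02e-06) were called lower, where 56.5% of all genes were. The other 6 were not called, at 0.40 for let-2, −0.33 for lam-2, −0.15 for epi-1, 0.13 for nid-1, 0.53 for cle-1 and −0.18 for fbl-1. With skn-1 RNAi food the same 2 genes were called higher, against 4.84% of all genes, and the same 2 lower, against 58.1% of all genes.

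**Figure D3:**
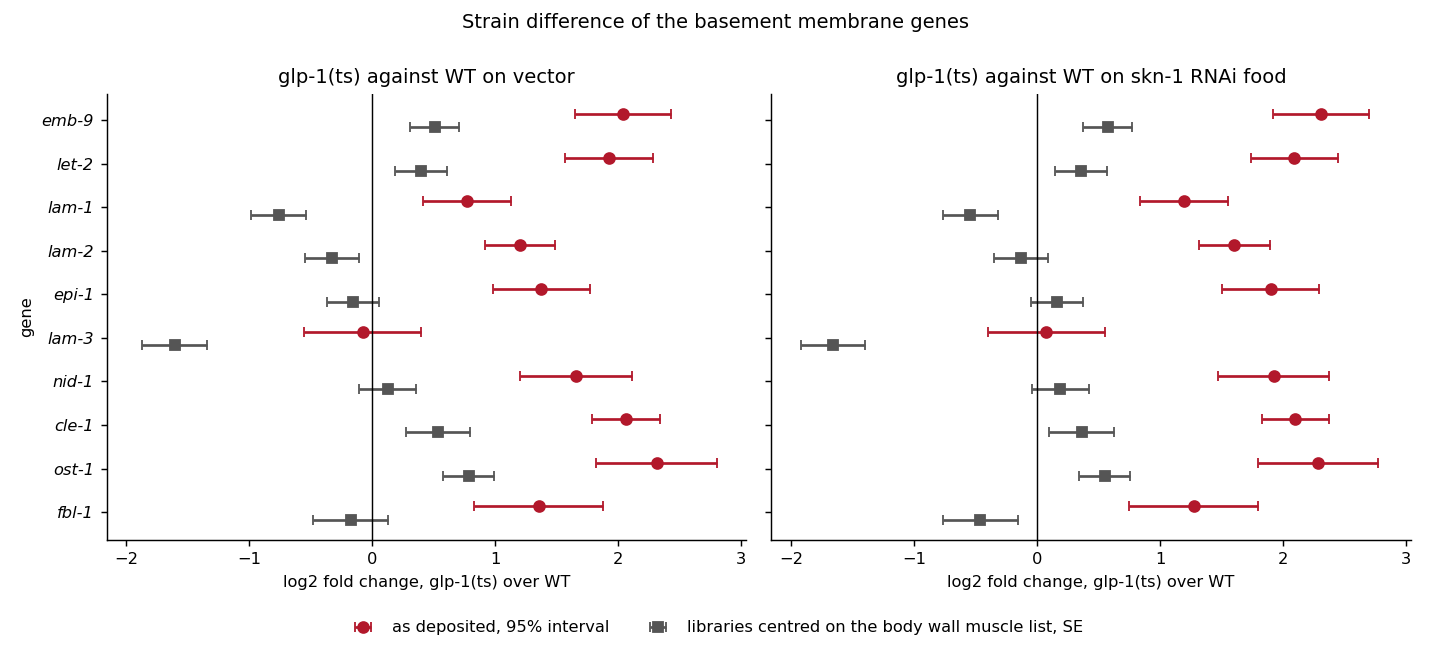
Log2 fold changes of glp-1(ts) over WT for the 10 genes on vector (left) and on skn-1 RNAi food (right), as deposited with 95% intervals (circles) and with libraries centred on the body wall muscle list with SE (squares). As deposited, the interval includes 0 for lam-3 alone on either food, and relative to muscle ost-1 and emb-9 stay above 0 while lam-1 and lam-3 lie below it.

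Other genes of the matrix were counted from lists written by role. The counts of these lists stand against 39.4% of all genes called higher in glp-1(ts) on vector. Of 10 further matrix proteins, 7 were called higher in glp-1(ts) on vector and 0 lower, with a median log2 fold change of 1.28. The largest differences were in spon-1 (F-spondin, 2.87) and him-4 (hemicentin, 2.34), both secreted matrix proteins. Of the matrix receptors and muscle attachment proteins, 13 of 15 were in the table, with 11 called higher and 1 lower (median 1.22). The vinculin gene deb-1 (2.00) and the integrin alpha gene pat-2 (1.74), both parts of the muscle attachment sites, had the largest differences. The beta integrin gene pat-3, whose product pairs with that of pat-2, had a log2 fold change of −0.33 (limma adjusted p = 0.0368). That call was lost without a trend in the variance (adjusted p = 0.068 by limma) and, when 1 library was left out, without any of the WT vector libraries or without glp-1(ts) vector replicate 1 or 3, with limma adjusted p of up to 0.126.

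Genes for the folding and export of collagen were called in both directions, as were all genes. Of 9, 5 were called higher and 3 lower (median 0.65). Of all 12595 genes, 4958 were called higher and 4788 lower. The lysyl hydroxylase gene let-268 (1.94), whose product modifies type IV collagen, and the prolyl hydroxylase subunit gene phy-2 (1.87) were higher. The collagen secretion genes tmem-39 (−2.07) and tmem-131 (−1.24) were lower. Of the matrix proteases and their inhibitors, 10 of 12 were in the table, with 9 called higher and 0 lower (median 2.13), led by the matrix metalloprotease gene zmp-3 (2.29) and the TIMP-like gene cri-2 (2.27). Relative to the muscle list, these 4 lists had 2, 0, 0 and 5 genes called higher and 3, 5, 6 and 1 called lower, in the order given here. On that scale 4.8% of all genes were called higher and 56.5% lower. The lists were not compared with each other by a test.

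**Figure D4:**
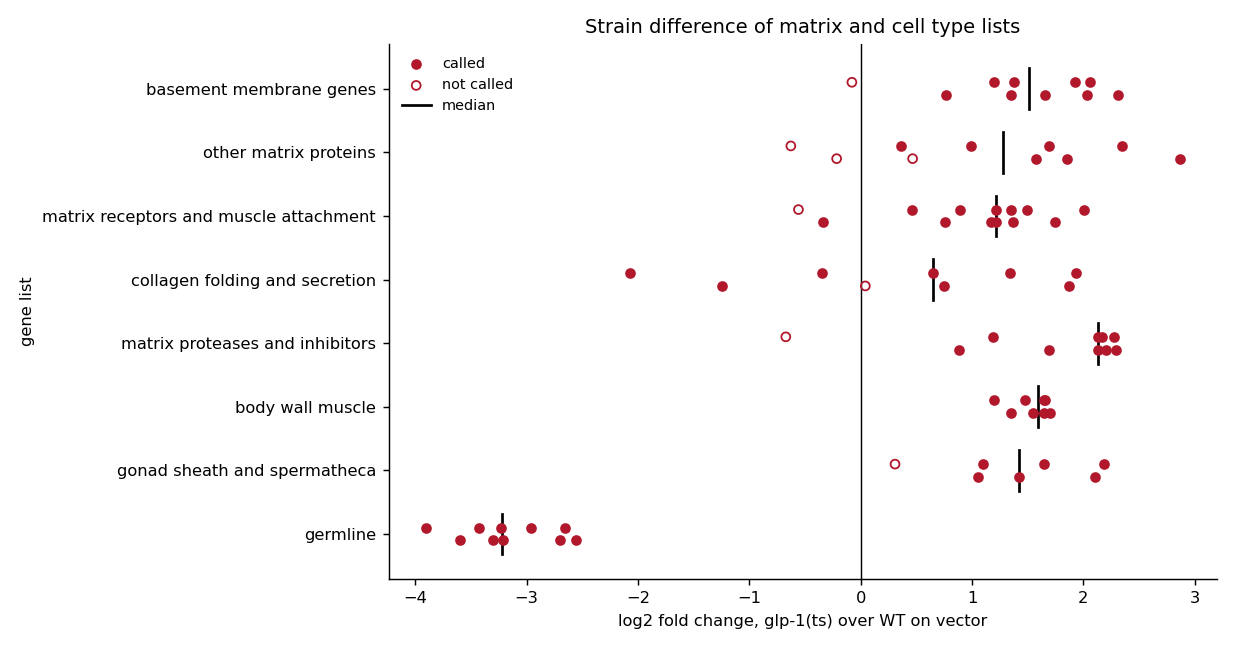
Log2 fold change of glp-1(ts) over WT on vector for each gene (points, filled where called by limma) of the basement membrane genes, 4 lists of matrix genes and 3 lists of cell type markers, with black lines at medians. The medians of the matrix lists are between 0.65 and 2.13, that of the basement membrane genes is 1.51, that of body wall muscle is 1.60 and that of the germline is −3.22.

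The next comparisons asked whether skn-1 RNAi moved the basement membrane genes. In the glp-1(ts) samples labelled as skn-1 RNAi, 0 of the 10 genes were called against glp-1(ts) on vector, where limma called 0.357% of all genes, and 0 had an unadjusted p under 0.05. Their log2 fold changes were −0.23 to 0.28, with a median of 0.15 against 0.01 over all genes, and 9 of 10 were above 0. The smallest adjusted p by limma was 0.603, for lam-2. They lay above the glp-1(ts) vector libraries without overlap for lam-2, epi-1 and nid-1, as they did for 8.29% of all genes. For lam-2 the values were 7.29, 7.15 and 7.35 log2 CPM in the libraries labelled skn-1 RNAi, against 6.97, 7.11 and 7.04 on vector, a log2 fold change of 0.22 with a 95% interval of −0.07 to 0.51. For epi-1 they were 8.54, 8.56 and 8.56 log2 CPM in the libraries labelled skn-1 RNAi, against 8.06, 8.41 and 8.36 on vector, with 0.28 and an interval of −0.12 to 0.67. The body wall muscle list was at 9.24, 9.23 and 9.26 mean log2 CPM in the libraries labelled skn-1 RNAi, against 8.97, 9.15 and 9.13 on vector, and its part in these values was not tested.

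In WT, whose skn-1 mRNA was lower, 0 of the 10 genes were called with skn-1 RNAi against vector, where limma called 0.175% of all genes, and 0 had an unadjusted p under 0.05. The log2 fold changes of the 10 genes were −0.25 for epi-1 to 0.15 for ost-1, with a median of −0.09 against 0.01 over all genes. The adjusted p by limma was 1 for each. The 95% intervals together spanned −0.67 to 0.63 on the log2 scale, and −0.75 to 0.67 in glp-1(ts). For the type IV collagen genes the WT intervals were −0.46 to 0.32 (emb-9) and −0.40 to 0.31 (let-2). Of all genes in the lists here, pha-4, which encodes a FoxA transcription factor of the pharynx and gut, was the 1 called in a skn-1 RNAi comparison, lower in WT with a log2 fold change of −1.39 (limma adjusted p = 0.0127). Its call was lost when only the groups compared were fitted (adjusted p = 0.107 by limma), and without WT vector replicate 1 or 3 (limma adjusted p = 0.0723 and 0.082).

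The difference of the skn-1 RNAi effects, that in glp-1(ts) minus that in WT, was called for 0 of the 10 genes and for 0% of all genes by limma. At an unadjusted limma p under 0.05 there were 745 of all genes and 0 of the 10. The estimates were positive for 8 of 10 genes, with a median of 0.22, against 1.8e-15 over all genes and 0.19 over the body wall muscle list. They were led by epi-1 (0.52, 95% interval −0.03 to 1.08), lam-1 (0.43, −0.08 to 0.93) and lam-2 (0.40, −0.0043 to 0.81), with adjusted p of 0.833 or more by limma. The part of the muscle share in these estimates was not tested.

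**Figure D5:**
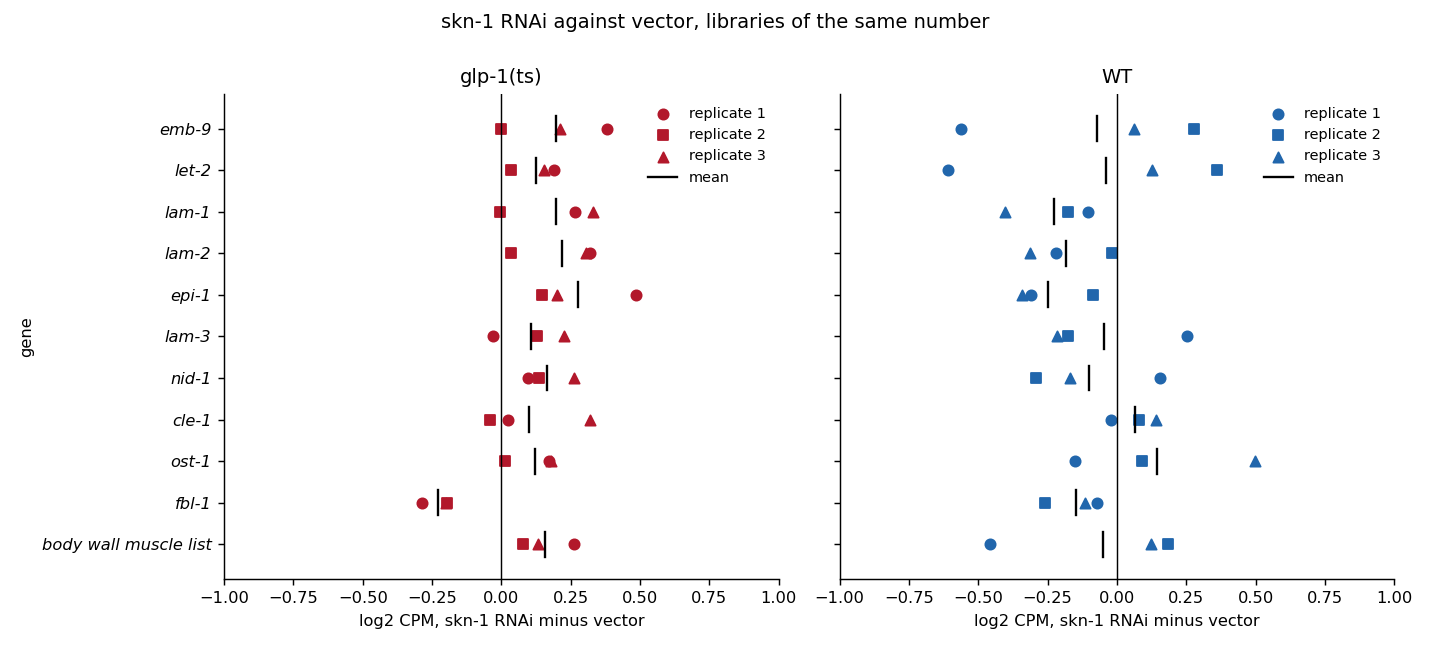
Difference in log2 CPM, skn-1 RNAi minus vector, between libraries of the same replicate number, for the 10 genes and the mean of the body wall muscle list in glp-1(ts) (left) and WT (right), with black lines at means. For lam-2 and epi-1 all 3 pairs are above 0 in glp-1(ts) and below 0 in WT, and fbl-1 is below 0 in all 6 pairs.

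The spread within groups was shared by most of the genes. In WT on vector, replicate 2 was the lowest library for 8 of the 10 genes, with a mean over the 10 genes 0.30 under its group mean, and the muscle list there was 0.45 under its group mean. In WT on skn-1 RNAi food, replicate 3 was the highest for 8 genes, with the mean of the 10 genes 0.24 and the muscle list 0.35 over their group means. In glp-1(ts) on vector, replicate 2 was the highest for 8 genes (mean 0.13 over the group, muscle list 0.07 over it). glp-1(ts) vector replicate 3, with germline markers 0.80 over their group mean, had a mean over the 10 genes 0.05 under its group. The 9 strain calls on vector held in each of the 12 fits that left out 1 library, with the log2 fold change of emb-9 between 1.81 and 2.18 and that of lam-1 between 0.61 and 0.95. Both lowest values came without WT vector replicate 2.

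After removing the group means, the genes outside the list whose deviations over the 12 libraries were most like those of emb-9 were Y43F8B.1 (Pearson's r = 0.957), K10C9.1 (0.950), T23E7.2 (0.948), unc-68 (0.944), which encodes the ryanodine receptor of muscle, and spe-29 (0.937). These values are descriptions over libraries that share groups and a common normalization. By the same measure let-2 was at 0.879 and 21st among all other genes, ost-1 at 0.822, epi-1 at 0.810, lam-2 at 0.802 and lam-1 at 0.648. The others were lower, at 0.499 for nid-1, 0.415 for lam-3, 0.209 for fbl-1 and −0.135 for cle-1.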

How the data were processed

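Poly(A) RNA of whole worms was sequenced as short single reads. The authors aligned them to WBcel235 with STAR, counted genes with featureCounts (Subread), kept genes with at least 1 CPM in at least 2 samples, and deposited quantile normalized log2 CPM from voom for 12595 genes in 12 libraries. Versions are not given in the sources used here. The deposited log2 values were used with no further filter. They sum to 980316 to 980342 CPM per library and hold no whole-read steps, so library depth is unknown and counting intervals were not given. The columns of the authors' own comparisons (fold changes, t, p and FDR values) were not used.

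Groups came from the sample titles. Group means of all 12 libraries were fitted in limma 3.58.1 (R 4.3.3) with a variance trend (8 residual degrees of freedom, 13.6 in total), since the voom weights could not be rebuilt, and p-values were adjusted over all genes. The labels call the replicates biological. The fit was tested on simulated data. Within-library ratios were compared by exact permutation (SciPy 1.17.1). Exon lengths and positions are from Ensembl release 115. All 10 genes are named, whatever their values. Of the lists of matrix genes, the 2 called genes with the largest rise and the 2 with the largest fall on vector are named, and any list gene called with skn-1 RNAi. The most like genes are the 5 with the highest correlation with emb-9. The genes and lists were chosen with earlier results of these data known. Of the lists, dgn-2, dgn-3, zmp-5, zmp-6, end-1, end-3 and med-1 were not analysed here.

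Alternatives were no trend, vooma weights, a mean of at least 1 or 4 CPM, log2(CPM + 1), only the groups compared, a replicate block, centring on the median, on 3 reference genes or on the muscle list, and leaving out each library. For the lists, skn-1 and pha-4 these were added after seeing the data. The replicate numbers pair the libraries within a strain. Residuals of the same number on the 2 foods had correlations of 0.15, 0.34 and 0.23 within glp-1(ts). Within WT these were 0.11, 0.31 and 0.25. Between strains the correlations were 0.03, 0.16 and 0.12 on vector, and 0.09, 0.16 and 0.04 on skn-1 RNAi food. Libraries of different numbers were at −0.16 to 0.02 on vector and −0.14 to 0.06 on skn-1 RNAi food. The main fit did not read the numbers as pairs between strains, while the replicate block shared them over both strains.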

Additional observations from a re-analysis of the deposited data

Results flagged for a closer look

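The laminin genes lam-2 and epi-1 moved in opposite directions with skn-1 RNAi in every pair of same-numbered libraries of the 2 strains. Both were flagged among the 10 genes from these same values, so the agreement of the pairs is no separate support. For lam-2 the differences in log2 CPM, skn-1 RNAi minus vector, were 0.32, 0.03 and 0.30 in glp-1(ts), against −0.22, −0.02 and −0.31 in WT. For epi-1 they were 0.49, 0.14 and 0.20 in glp-1(ts), against −0.31, −0.09 and −0.34 in WT. The difference of the effects was 0.4023 on the log2 scale for lam-2 and 0.5235 for epi-1, with unadjusted limma p of 0.0521 and 0.0626 and an adjusted p of 0.833 for each, so neither was called. The body wall muscle list moved by 0.26, 0.08 and 0.13 in glp-1(ts) and by −0.46, 0.18 and 0.12 in WT in the same pairs, and its part was not tested. The skn-1 mRNA was not lower in the glp-1(ts) samples labelled as skn-1 RNAi.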

How the results depend on the processing

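Over the 9 alternatives other than muscle centring, all 90 values for the 10 genes on each food in glp-1(ts) against WT kept their direction and their side of the threshold. With libraries centred on the body wall muscle list, 4 genes were called on each food (2 higher, 2 lower) in place of 9. The log2 fold changes that turned then were −0.76 (lam-1), −0.33 (lam-2), −0.15 (epi-1) and −0.18 (fbl-1) on vector, and −0.54 (lam-1), −0.13 (lam-2), −1.66 (lam-3) and −0.46 (fbl-1) on skn-1 RNAi food. The list used for centring was itself higher in glp-1(ts). None of the values that turned with skn-1 RNAi was called in any fit. With muscle centring they were −0.030 (let-2), −0.049 (lam-3), −0.056 (cle-1) and −0.036 (ost-1) in glp-1(ts), 0.0090 (let-2) and 0.0032 (lam-3) in WT, and −0.039 (let-2), −0.052 (lam-3) and −0.17 (cle-1) for the difference of the effects. With centring on the reference genes they were −7.5e-05 (cle-1) in WT, and 0.054 (ost-1) and 0.00083 (fbl-1) for the difference.

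With 1 library left out, the count of genes called was 9 in each strain comparison and 0 in the others. Values that turned sign were not called, and ranged from −0.22 to 0.18 for lam-3 on vector and from −0.11 to 0.25 on skn-1 RNAi food. For skn-1 RNAi in WT the ranges were −0.30 to 0.074 (emb-9), −0.21 to 0.11 (let-2), −0.22 to 0.21 (lam-3), −0.27 to 0.17 (nid-1), −0.0084 to 0.11 (cle-1), −0.12 to 0.40 (ost-1) and −0.28 to 0.039 (fbl-1). For the difference of the effects they were −0.11 to 0.33 (lam-3), −4.9e-05 to 0.44 (nid-1), −0.038 to 0.12 (cle-1), −0.28 to 0.24 (ost-1) and −0.28 to 0.11 (fbl-1). The skn-1 mRNA in glp-1(ts) ranged from −0.25 to 0.19. The ratio differences ranged from −0.18 to −0.06 (let-2 over emb-9) and from 0.37 to 0.48 (lam-2 over lam-1).

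The fit with the replicate block changed no call of the 10 genes, with adjusted p by limma of at least 0.463 in glp-1(ts), 0.906 in WT and 0.637 for the difference between them. Over all genes, skn-1 RNAi calls were 99 in glp-1(ts) and 59 in WT with the replicate block, against 45 in glp-1(ts) and 22 in WT without it. Over the alternatives other than the replicate block and leaving out a library, they were 12 to 77 in glp-1(ts) and 4 to 29 in WT. With 1 library left out they were 9 (without glp-1(ts) skn-1 RNAi replicate 1) to 63 (without glp-1(ts) vector replicate 2) in glp-1(ts). In WT they were 0 (limma, without WT vector replicate 1, where 566 genes had an unadjusted p under 0.05) to 31 (without WT skn-1 RNAi replicate 1). Quantile normalization, unknown depth and 3 libraries a group limit what small changes can be seen.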
